A study of Mus musculus with 6 samples.

Results

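The collagen genes were examined in RNA-seq of whole ovaries from C57BL/6 J mice aged 8 weeks. They were taken as every gene whose symbol is Col, a number, a and a number, which gave 44 of the 44788 genes listed. Total RNA from 3 Bnc1+/+ ovaries (replicates 1, 4 and 7) was compared with that from 3 Bnc1tr/tr ovaries (replicates 1, 2 and 3). Bnc1tr/tr mice carry, in every cell of the body, homozygous copies of a small deletion in an exon of Bnc1, which encodes the zinc finger protein basonuclin 1, and the deletion shifts the reading frame to an early stop codon. Bnc1+/+ mice are the wild type, and according to the study's methods littermates were compared. The labels do not say that each library came from a separate animal, so the p values measure the spread between these samples. The study used these libraries to ask which genes change in the ovary with this mutation, and the comparison below asks it of the collagens.

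Collagens are secreted proteins whose chains wind around each other as a helix, and they form much of the scaffold between cells. Fibrillar collagens such as types I and III build the fibres of the ovarian stroma and of the capsule under the ovarian surface. Type IV collagen builds the sheet-like networks of basement membranes, which surround follicles and blood vessels. Type VI collagen forms beaded filaments close to cells, and the multiplexins, types XV and XVIII, are attached to basement membranes. A chain has to be hydroxylated, folded, secreted, trimmed and cross-linked before it becomes part of the matrix.

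The data show lower Col6a1 and Col4a1 in Bnc1tr/tr ovaries, whereas the fibrillar collagens Col1a1, Col1a2 and Col3a1 had overlapping levels in the genotypes. Col6a1, a chain of type VI collagen, was 40.9% lower and Col4a1, a chain of type IV collagen, was 35.9% lower in Bnc1tr/tr. Col4a2, the usual partner chain of Col4a1, was 35.1% lower with an adjusted p of 0.0520, just above the threshold. Of 41 collagens with enough counts to be tested, 2 were lower (4.88%, beside 4.19% of all genes) and 0 were higher (beside 2.88%). The others did not pass. The call of Col4a1 was lost whichever ovary was left out. That of Col6a1 was lost without Bnc1+/+ replicate 4 and without Bnc1tr/tr replicate 3. Levels below are given as CPM, that is counts scaled to 1000000 per library after scaling by the trimmed mean of M values (TMM). Fold changes are Bnc1tr/tr over Bnc1+/+ on the log2 scale, so that negative values mean lower levels in Bnc1tr/tr. A gene was called changed where edgeR's quasi-likelihood test gave a two-sided p under 0.05 after Benjamini-Hochberg adjustment over all 19423 genes tested.

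The chains that carry these results lie in gene pairs, and their start regions are shown to compare how the genes of a pair are arranged. Col4a1 (chromosome 8, 11198423 to 11312826, minus strand, GRCm38) and Col4a2 (chromosome 8, 11312805 to 11449287, plus strand) lie head to head, with annotated starts that overlap by 22 bases. Col6a1 (chromosome 10, 76708792 to 76726168) and Col6a2 (chromosome 10, 76595762 to 76623630) are both on the minus strand, 85.2 kb apart. Each sequence runs 5′ to 3′ on the strand of its gene, from 250 bases before the RefSeq start (GRCm38.p6) to 50 bases after it. Capitals mark a CCAAT box or a GC box (GGGCGG) read on either strand.
Col4a1, chr8:11312777-11313076, minus strand: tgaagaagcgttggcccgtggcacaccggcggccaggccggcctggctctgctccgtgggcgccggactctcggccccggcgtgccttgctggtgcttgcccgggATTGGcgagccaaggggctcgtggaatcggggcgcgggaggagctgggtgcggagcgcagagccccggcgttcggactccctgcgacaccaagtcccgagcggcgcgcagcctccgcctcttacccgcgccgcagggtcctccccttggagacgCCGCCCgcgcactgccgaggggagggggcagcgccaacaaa
Col4a2, chr8:11312555-11312854, plus strand: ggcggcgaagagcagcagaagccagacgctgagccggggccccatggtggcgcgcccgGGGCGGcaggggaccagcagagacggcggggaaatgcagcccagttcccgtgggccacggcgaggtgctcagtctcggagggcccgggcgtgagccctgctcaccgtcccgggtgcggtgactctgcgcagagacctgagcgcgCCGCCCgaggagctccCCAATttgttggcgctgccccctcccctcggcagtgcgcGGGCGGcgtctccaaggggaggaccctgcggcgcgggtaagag
Col6a1, chr10:76725995-76726294, minus strand: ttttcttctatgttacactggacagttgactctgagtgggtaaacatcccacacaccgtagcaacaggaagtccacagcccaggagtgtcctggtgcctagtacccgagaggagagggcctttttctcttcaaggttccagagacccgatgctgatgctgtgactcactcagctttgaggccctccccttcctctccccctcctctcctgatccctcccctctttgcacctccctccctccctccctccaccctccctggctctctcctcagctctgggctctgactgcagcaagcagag
Col6a2, chr10:76623581-76623880, minus strand: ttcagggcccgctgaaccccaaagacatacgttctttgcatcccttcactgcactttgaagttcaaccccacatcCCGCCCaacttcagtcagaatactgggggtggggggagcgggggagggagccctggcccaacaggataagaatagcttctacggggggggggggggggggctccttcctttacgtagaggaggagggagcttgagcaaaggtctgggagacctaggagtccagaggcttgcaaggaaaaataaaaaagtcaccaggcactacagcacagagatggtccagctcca

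The RefSeq starts of Col4a1 and Col4a2 are 21 bases apart, so their 300-base windows share 78 bases. The GC box at position 9 of Col4a1 and the one at position 7 of Col4a2 are the same site in that shared stretch, read from opposite strands. Col4a1 also holds a CCAAT box at -145, and Col4a2 holds a CCAAT box at -32 and further GC boxes at -192 and -48. The Col6a1 window holds none of the searched motifs, and the Col6a2 window holds 1 GC box at -175. The bases G and C make up 74.0% and 73.7% of the Col4a1 and Col4a2 windows but 57.3% and 56.7% of the Col6a1 and Col6a2 windows. RefSeq windows were found for 35 of the 44 collagens, with 38 promoters among them. A GC box occurred in 23 of these 38 promoters (60.5%) and in 35.7% of all 32851 promoters of this length. A CCAAT box occurred in 34.2% of the collagen promoters and 37.4% of all promoters, a TATAAA box in 13.2% and 13.6%, and the letters GGAATG, the binding motif of TEAD factors, in 13.2% and 14.7%. These are matches of letters in a window and were not tested as binding sites.

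Between 25247770 and 34406296 counts per ovary fell on genes. Between ovaries of 1 genotype the chi-square per degree of freedom over genes was 15.6 to 58.5, far above that of counting error alone. Within a genotype, no library was therefore another library sequenced again. A second library made from the same animal or RNA cannot be recognised this way. Bnc1 was counted in all 6 ovaries, at 13.9, 13.4 and 13.1 CPM in Bnc1+/+ replicates 1, 4 and 7 and at 18.7, 13.7 and 11.5 CPM in Bnc1tr/tr replicates 1, 2 and 3. Counts per gene do not show the deletion, so this level does not check the genotype. Of all genes tested, 1372 (7.06%) were called, 813 of them (4.19% of all) with lower and 559 (2.88%) with higher levels in Bnc1tr/tr.

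Collagens as a group held 0.617%, 0.611% and 0.813% of all counts in Bnc1+/+ replicates 1, 4 and 7. In Bnc1tr/tr replicates 1, 2 and 3 they held 0.550%, 0.622% and 0.601%. By these raw shares, replicate 7 of Bnc1+/+ stood above the other 5 ovaries, which overlapped between genotypes. After TMM scaling the collagens summed to 6448, 6348 and 8324 CPM in Bnc1+/+ and to 5320, 6046 and 5788 CPM in Bnc1tr/tr, without overlap, so whether the totals overlapped depended on the scaling. A few genes made most of this signal. Col4a1, Col3a1, Col6a1, Col1a2 and Col4a2 held 65.7% of the summed collagen CPM over the 6 ovaries, and with Col6a2, Col1a1 and Col18a1 the share was 80.4%. In total, 13 collagens had a mean above 100 CPM.

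**Figure D1:**
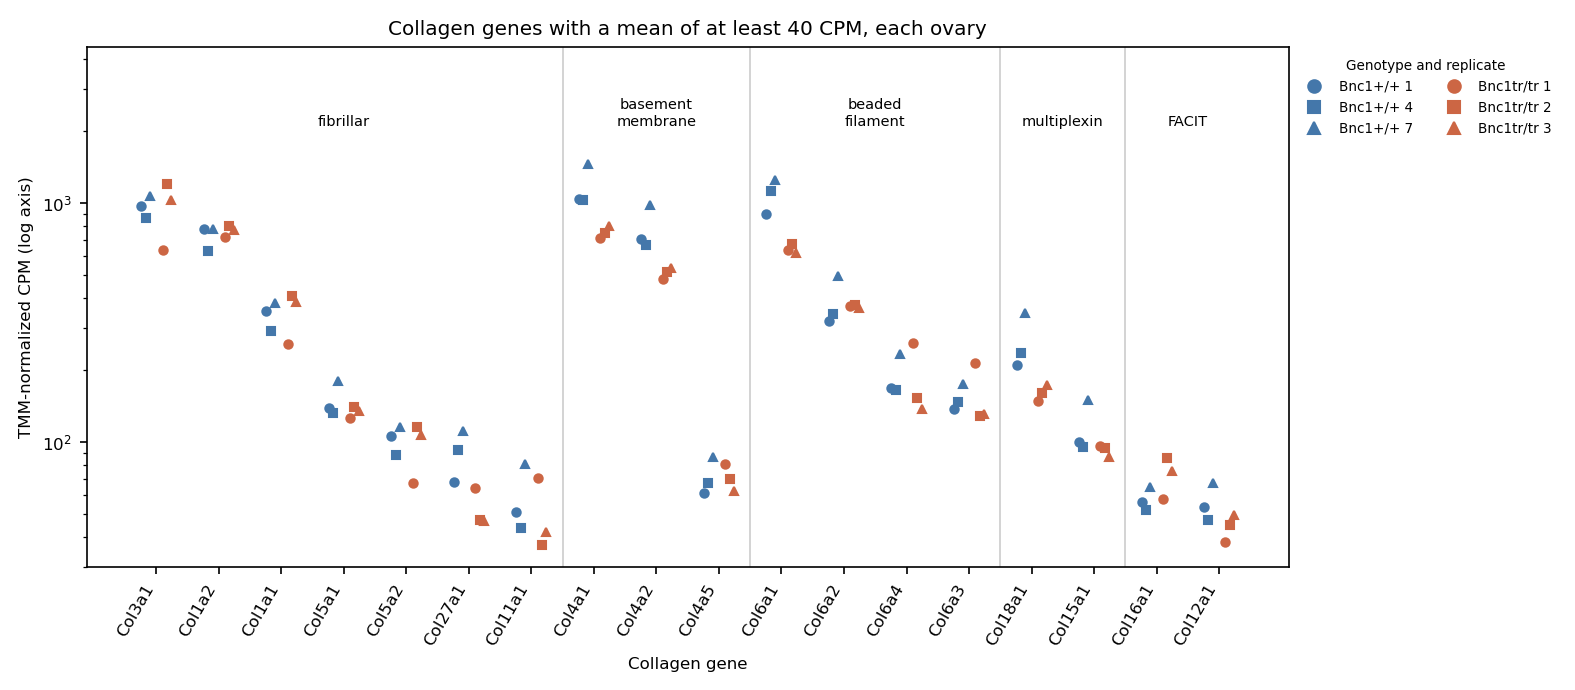
Levels of the collagen genes with a mean of at least 40 CPM, with collagen genes by class on the horizontal axis and TMM-normalized CPM on a logarithmic vertical axis. Each point is 1 ovary, blue for Bnc1+/+ and red for Bnc1tr/tr, and FACIT stands for fibril-associated collagens with interrupted helices. The Bnc1tr/tr points lie below all Bnc1+/+ points for Col4a1, Col4a2, Col6a1, Col18a1 and Col27a1. For Col1a1, Col1a2 and Col3a1 the ranges of the genotypes overlap. For Col1a1 and Col3a1, Bnc1tr/tr replicate 1 lies below and replicate 2 above all Bnc1+/+ points.

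Levels were divided by the length of the union of exons so that different genes could be compared. On this length Col6a1 was first in both genotypes, at 248.8 CPM per kb in Bnc1+/+ and 147 CPM per kb in Bnc1tr/tr. Col4a1 followed with 158 and 101 CPM per kb, Col4a2 with 119 and 77.2 CPM per kb, and Col3a1 with 98.8 and 97.3 CPM per kb. Col1a2 had 58.6 and 61.6 CPM per kb and Col1a1 had 52.2 and 53.6 CPM per kb. Col6a2, Col18a1, Col6a4 and Col5a1 completed the 10 highest. Within each genotype the ovaries of Col6a1 lay above those of Col4a1 per kilobase, whereas Col4a1 and Col4a2 overlapped in Bnc1+/+, and Col4a2 and Col3a1 overlapped in both genotypes. The order depended on the length used. With the longest transcript as length, Col6a1 was first in Bnc1+/+ with 265.8 CPM per kb, but in Bnc1tr/tr Col3a1 (172 CPM per kb) was above Col6a1 (157 CPM per kb). Col3a1 then had 174 CPM per kb in Bnc1+/+, close to the 178 CPM per kb of Col4a1, and Col1a2 lay above Col4a2, with 136 against 122 CPM per kb in Bnc1+/+ and 143 against 79.2 CPM per kb in Bnc1tr/tr.

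Type IV collagen has 6 chains, all tested. The chains Col4a1 and Col4a2 are found in almost all basement membranes, and Col4a3 to Col4a6 in more specialised ones. Col4a1 was at 1043, 1035 and 1454 CPM in Bnc1+/+ replicates 1, 4 and 7 and at 713, 749 and 803 CPM in Bnc1tr/tr replicates 1, 2 and 3. Every Bnc1tr/tr ovary lay below every Bnc1+/+ ovary, with the highest value in Bnc1+/+ replicate 7. The log2 fold change of Col4a1 was -0.64 (SE 0.147, edgeR adjusted p = 0.0427). This call was lost when any 1 of the 6 ovaries was left out (adjusted p 0.0574 to 0.100), with a log2 fold change between -0.73 and -0.47. It was also lost when counts were scaled by library size only (edgeR adjusted p = 0.0662).

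Col4a2 was at 707, 668 and 987 CPM in Bnc1+/+ and at 483, 516 and 534 CPM in Bnc1tr/tr. Its values did not overlap either, and the log2 fold change was -0.62 (SE 0.153, edgeR adjusted p = 0.0520). Together the chains summed to 1965 ± 413 CPM in Bnc1+/+ and 1266 ± 71.0 CPM in Bnc1tr/tr (SD, n = 3). The 4 other chains were much less abundant and summed to 132 ± 21.4 and 148 ± 27.0 CPM (SD, n = 3), with overlapping ovaries. Col4a5 was at 61.3, 67.7 and 87.0 CPM in Bnc1+/+ and at 81.1, 70.0 and 62.2 CPM in Bnc1tr/tr. Col4a6, which pairs with Col4a5, was at 18.7, 17.5 and 27.0 CPM in Bnc1+/+ and at 40.1, 28.2 and 26.5 CPM in Bnc1tr/tr. Its log2 fold change was 0.59 (SE 0.213, edgeR adjusted p = 0.144) and its highest value came from Bnc1tr/tr replicate 1. Col4a3 and Col4a4 had log2 fold changes of 0.11 and 0.27 and did not pass the test (edgeR adjusted p = 0.768 and 0.347). Over the 6 chains the median log2 fold change was 0.047, since the abundant pair was lower and 3 of the rarer chains had positive values.

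Type VI collagen also has 6 chains, of which Col6a1, Col6a2 and Col6a3 form the common molecule and Col6a4, Col6a5 and Col6a6 can stand in for Col6a3. Col6a1 was at 898, 1123 and 1248 CPM in Bnc1+/+ replicates 1, 4 and 7 and at 635, 677 and 620 CPM in Bnc1tr/tr replicates 1, 2 and 3. The Bnc1tr/tr ovaries lay close together below all Bnc1+/+ ovaries. The log2 fold change of Col6a1 was -0.76 (SE 0.130, edgeR adjusted p = 0.0160), and leaving out 1 ovary at a time kept it between -0.89 and -0.66. The call was lost without Bnc1+/+ replicate 4 (adjusted p = 0.0876) and without Bnc1tr/tr replicate 3 (adjusted p = 0.0681).

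The partner chains of Col6a1 had a different pattern. Col6a2 was at 320, 345 and 494 CPM in Bnc1+/+ and at 373, 377 and 366 CPM in Bnc1tr/tr, with a log2 fold change of -0.057 (SE 0.159, edgeR adjusted p = 0.862). The genotypes overlapped, since Bnc1+/+ replicates 1 and 4 lay below all Bnc1tr/tr ovaries and replicate 7 above them. Col6a3 was at 137, 147 and 176 CPM in Bnc1+/+ and at 215, 128 and 131 CPM in Bnc1tr/tr. Col6a4 was at 169, 166 and 234 CPM in Bnc1+/+ and at 259, 153 and 138 CPM in Bnc1tr/tr. For both genes Bnc1tr/tr replicate 1 was the highest of the 6 ovaries and the other Bnc1tr/tr ovaries the lowest, so the genotype means hid a wide spread. Col6a5 was at 17.6, 24.3 and 39.0 CPM in Bnc1+/+ and at 14.6, 11.3 and 9.59 CPM in Bnc1tr/tr (log2 fold change -1.19, SE 0.292, edgeR adjusted p = 0.0523). Col6a6 had a log2 fold change of -0.44 (edgeR adjusted p = 0.134), and neither gene overlapped between genotypes.

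**Figure D2:**
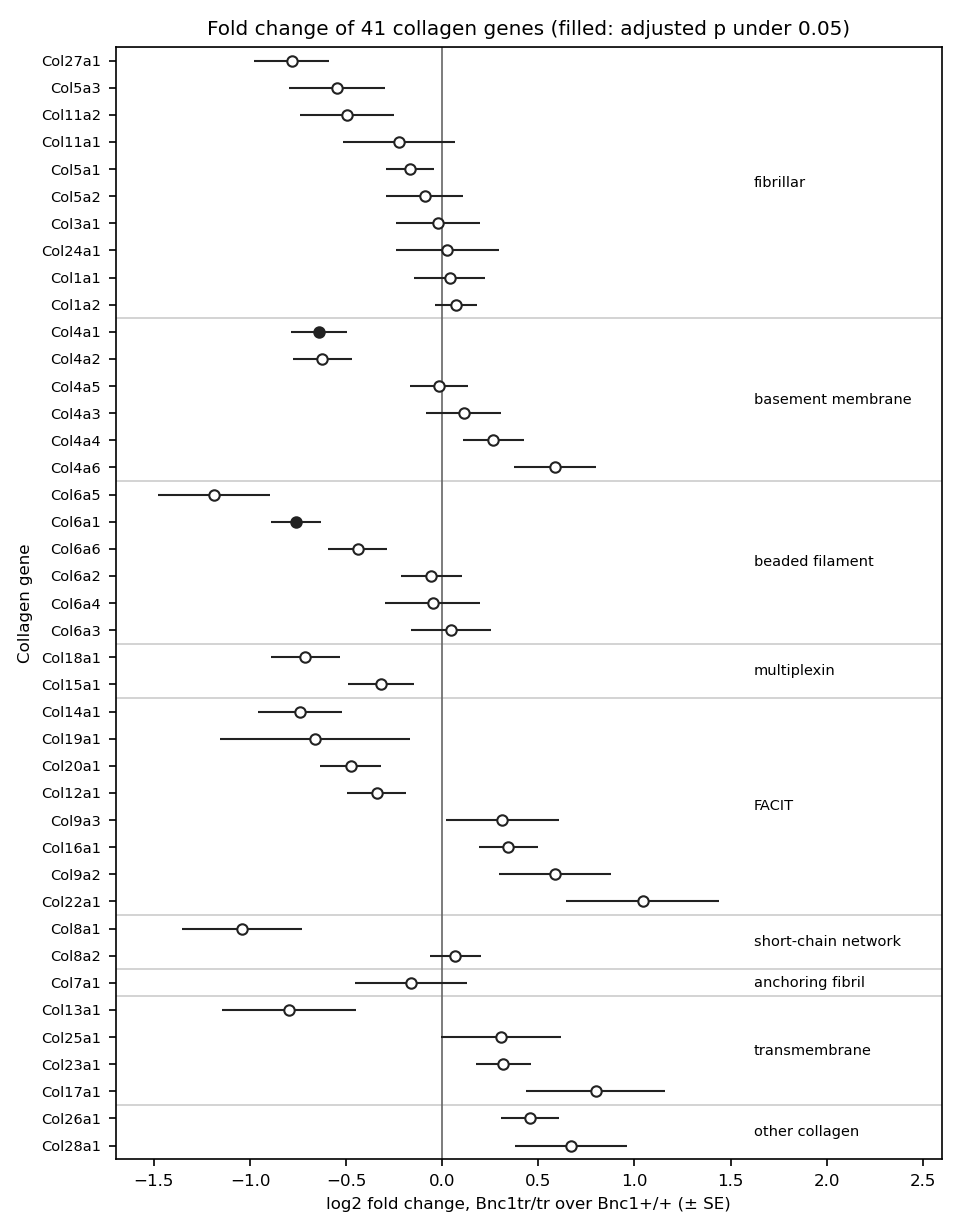
Log2 fold changes of the 41 tested collagens (Bnc1tr/tr over Bnc1+/+), grouped by class, with bars of 1 standard error derived from edgeR's F statistic. Filled points mark Col6a1 and Col4a1, which had an adjusted p under 0.05, and the fibrillar genes Col1a1, Col1a2 and Col3a1 lie near 0.

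For pairs of chains of the same collagen type, the ratio of their counts was taken within each ovary, where library scaling cancels out. The chains of a pair need not occur only together, as Col6a4, Col6a5 and Col6a6 can stand in for Col6a3. A ratio of RNA counts therefore does not give the make-up of the molecules. Col4a1 had 1.48, 1.55 and 1.47 counts per count of Col4a2 in Bnc1+/+ replicates 1, 4 and 7 and 1.48, 1.45 and 1.503 in Bnc1tr/tr replicates 1, 2 and 3. The pair therefore kept its ratio within the spread of ovaries while both levels were lower in every Bnc1tr/tr ovary. Per kilobase the log2 ratio was 0.41 ± 0.041 in Bnc1+/+ and 0.39 ± 0.025 in Bnc1tr/tr (SD, n = 3). Col6a1 had 2.80, 3.25 and 2.53 counts per count of Col6a2 in Bnc1+/+ and 1.70, 1.80 and 1.70 in Bnc1tr/tr, with no overlap. Its log2 ratio per kilobase went from 2.44 ± 0.183 to 1.72 ± 0.047 (SD, n = 3), a difference of -0.72.

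Col4a5 had 3.28, 3.87 and 3.22 counts per count of Col4a6 in Bnc1+/+ and 2.02, 2.49 and 2.35 in Bnc1tr/tr, again without overlap. The log2 ratio of Col6a3 to Col6a1 was higher in Bnc1tr/tr by 0.76 and that of Col8a1 to Col8a2 lower (difference -1.14), both without overlap between genotypes. The ratios of Col1a1 to Col1a2, Col4a3 to Col4a4, Col5a1 to Col5a2 and Col11a1 to Col11a2 overlapped. Within Bnc1tr/tr, replicate 1 had 0.359 counts of Col1a1 per count of Col1a2, below the 0.453 to 0.510 of the other 5 ovaries. No test was run on these ratios, and the ratio of Col9a1 to Col9a2 was not formed because Col9a1 had at most 3 counts in any ovary.

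**Figure D3:**
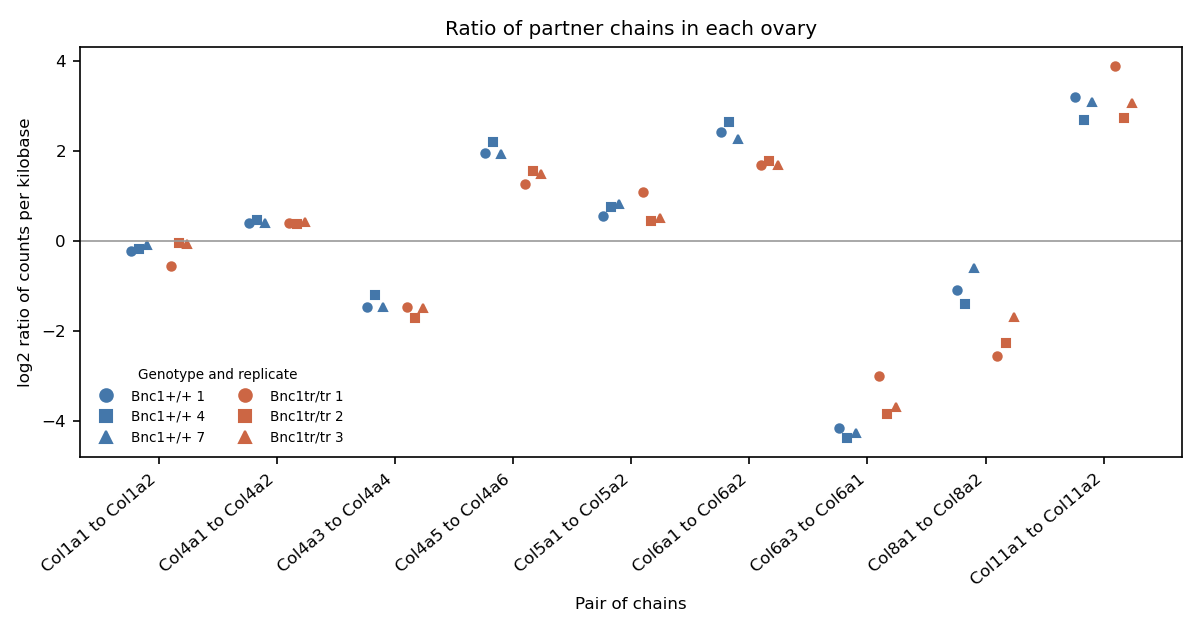
Log2 ratios of counts per kilobase for pairs of chains of the same collagen type, with 1 point per ovary, blue for Bnc1+/+ and red for Bnc1tr/tr. The ratios of Col6a1 to Col6a2, Col4a5 to Col4a6 and Col8a1 to Col8a2 lie lower in all 3 Bnc1tr/tr ovaries and that of Col6a3 to Col6a1 lies higher, whereas the Col4a1 to Col4a2 ratios lie together.

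Fibrillar collagens comprised 11 genes, 10 of them tested, and edgeR called 0 of them (1 at an unadjusted p under 0.05, and 1, Col27a1, was called by DESeq2). Their summed level was 2455 ± 291 CPM in Bnc1+/+ and 2414 ± 421 CPM in Bnc1tr/tr (SD, n = 3), and their median log2 fold change was -0.13. Col1a1, a chain of type I collagen, was at 353, 292 and 383 CPM in Bnc1+/+ and at 258, 410 and 387 CPM in Bnc1tr/tr. Its partner Col1a2 was at 779, 630 and 776 CPM and at 719, 803 and 772 CPM (log2 fold change 0.071, SE 0.110). Col3a1, the only chain of type III collagen, was at 973, 863 and 1074 CPM in Bnc1+/+ and at 635, 1203 and 1028 CPM in Bnc1tr/tr. Bnc1tr/tr replicate 1 was the lowest and replicate 2 the highest of all ovaries for Col1a1 and Col3a1.

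Col5a1, which together with Col5a2 forms the type V collagen at the core of fibrils, was at 138, 132 and 180 CPM in Bnc1+/+ and at 126, 140 and 134 CPM in Bnc1tr/tr. Col5a2 was at 106, 88.3 and 116 CPM and at 67.3, 116 and 107 CPM, and it lies 24.6 kb from Col3a1 on chromosome 1. Col27a1 was at 68.4, 93.1 and 111 CPM in Bnc1+/+ and at 64.0, 47.2 and 47.0 CPM in Bnc1tr/tr, so its genotypes did not overlap (log2 fold change -0.78, SE 0.194, edgeR adjusted p = 0.0539). Col11a1 was at 50.8, 43.7 and 80.9 CPM and at 70.5, 37.2 and 42.2 CPM. Col5a3, Col11a2 and Col24a1 had means under 6 CPM. Col2a1, the collagen of cartilage, had 1 to 9 counts per ovary and was not tested.

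Of the 27 remaining collagens, 25 were tested and 1, Col6a1, was called. In the multiplexin class, Col18a1, whose cleaved end is endostatin, was at 210, 235 and 345 CPM in Bnc1+/+ and at 148, 161 and 174 CPM in Bnc1tr/tr. The genotypes did not overlap, with a log2 fold change of -0.71 (SE 0.181, edgeR adjusted p = 0.0574). Col15a1 was at 100, 95.5 and 150 CPM and at 96.6, 94.5 and 86.4 CPM, with a log2 fold change of -0.32 (edgeR adjusted p = 0.302). Col8a1, which builds hexagonal networks in vessels and other tissues, was at 5.54, 4.44 and 7.55 CPM in Bnc1+/+ and at 2.03, 2.46 and 4.02 CPM in Bnc1tr/tr (log2 fold change -1.04, SE 0.312, edgeR adjusted p = 0.0900). Its partner Col8a2 had means of 6.69 and 7.02 CPM.

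Among the 9 FACIT collagens, which sit on the surface of fibrils, 8 were tested. Col16a1 had means of 57.7 and 73.2 CPM and Col12a1 of 56.1 and 44.3 CPM, in Bnc1+/+ and Bnc1tr/tr respectively. Col14a1 and Col20a1 had log2 fold changes of -0.74 and -0.48 without overlap between genotypes (edgeR adjusted p = 0.0851 and 0.114). Col22a1 had the largest positive log2 fold change of the tested collagens, 1.04 with an SE of 0.396 (edgeR adjusted p = 0.159), with 5.28, 1.78 and 2.66 CPM in Bnc1+/+ and 4.84, 8.12 and 6.98 CPM in Bnc1tr/tr. Without Bnc1+/+ replicate 1 it was called higher. Col9a2 was at 23.1, 26.3 and 36.8 CPM and at 64.3, 31.8 and 33.4 CPM, with the highest value again in Bnc1tr/tr replicate 1.

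The 4 transmembrane collagens Col13a1, Col17a1, Col23a1 and Col25a1 had means of at most 8.39 CPM and did not pass the test. Col26a1 had means of 14.5 and 19.8 CPM with a log2 fold change of 0.46 (edgeR adjusted p = 0.118), and its genotypes did not overlap. The anchoring fibril collagen Col7a1 had means of 3.95 and 3.52 CPM. Col10a1 and Col9a1 had 0 to 8 and 0 to 3 counts per ovary and were not tested. The counts listed no gene under the symbol Col21a1.

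Read against all genes, the calls among the collagens were few. The 2 lower collagens were 4.88% of those tested, beside 4.19% of all genes called lower, and 0 were called higher beside 2.88%, with 0 higher by DESeq2 as well. At an unadjusted p under 0.05 there were 13 collagens (31.7%) and 24.2% of all genes. For 10 collagens (24.4%) all 3 Bnc1tr/tr values lay below all Bnc1+/+ values, beside 15.8% of all genes, and for 4 (9.76%) they lay above, beside 15.0%. The former were Col6a1, Col4a1, Col4a2, Col6a5, Col27a1, Col18a1, Col14a1, Col8a1, Col20a1 and Col6a6, and the latter were Col26a1, Col28a1, Col23a1 and Col8a2. The median log2 fold change was -0.057 over the collagens and 0.018 over all genes tested.

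The number of called collagens depended on the ovaries used. It was 0 without Bnc1+/+ replicate 4 and 0 without Bnc1tr/tr replicate 3, although 15 and 14 collagens then had an unadjusted p under 0.05. It was 1 without Bnc1+/+ replicate 7, and 5 without Bnc1+/+ replicate 1. The count over all genes fell as well, from 1372 to 320 without Bnc1+/+ replicate 4 and 634 without Bnc1tr/tr replicate 3. It was 518 without Bnc1+/+ replicate 7 and 781 without Bnc1+/+ replicate 1. DESeq2 called 8 of the 41 collagens, all lower, which added Col6a5, Col4a2, Col27a1, Col18a1, Col8a1 and Col14a1 to Col6a1 and Col4a1. Over all 19423 genes tested DESeq2 called 2420, of which 1340 were lower, beside 1372 and 813 by edgeR.

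Individual ovaries differed within each genotype. Bnc1+/+ replicate 7 was the highest Bnc1+/+ ovary for 33 of the 41 tested collagens (80.5%), whereas it was the highest for 35.9% of all genes. Bnc1tr/tr replicate 1 was the lowest Bnc1tr/tr ovary for 18 collagens (43.9%, beside 37.55% of all genes) and the highest for 13 (31.71%, beside 38.27%), near the shares over all genes. It was low for Col3a1, Col1a1 and Col5a2 and high for Col6a3, Col6a4, Col9a2, Col11a1, Col4a3, Col4a4 and Col4a6, a grouping made after the values were seen and not tested. In the same ovary the summed granulosa markers (7199 CPM) were the highest of all 6 ovaries and the summed corpus luteum markers (6972 CPM) the lowest. The part of these cells in the collagen levels was not tested.

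**Figure D4:**
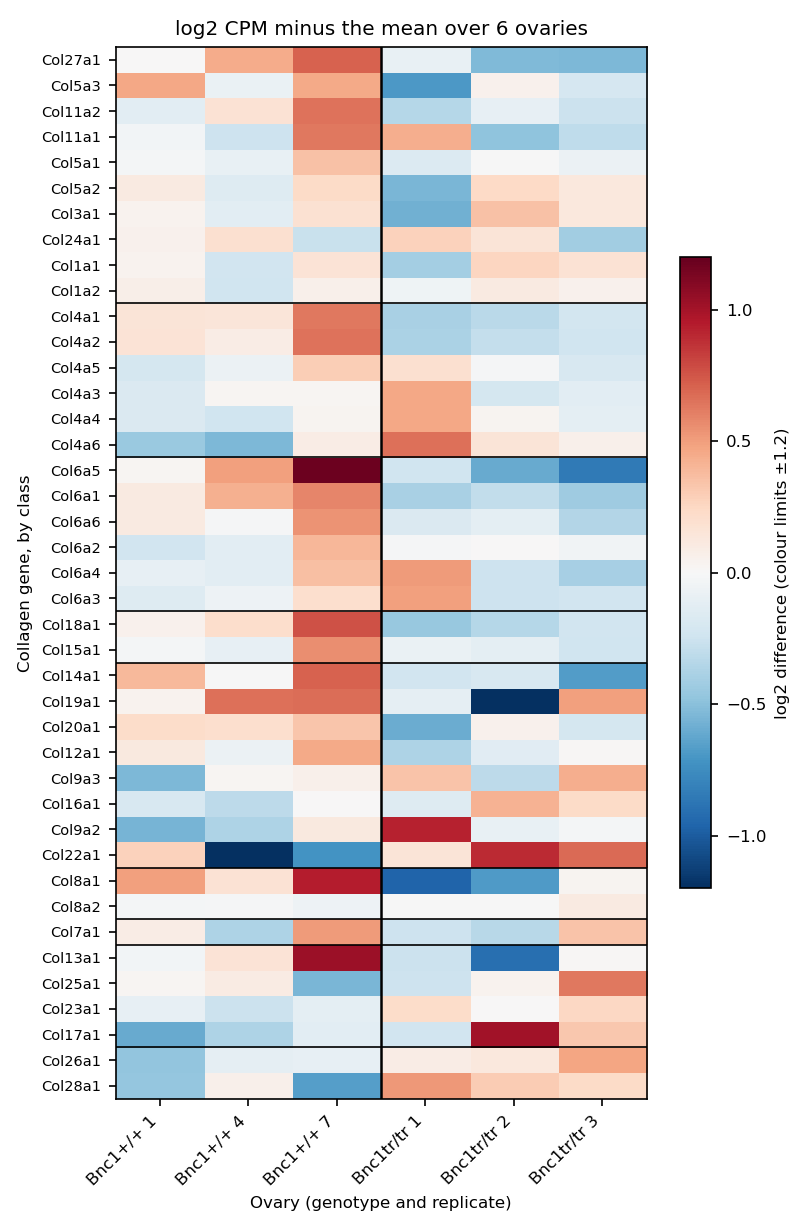
Deviation of each tested collagen in each ovary from the gene's mean over the 6 ovaries, on the log2 scale, with ovaries on the horizontal axis and genes by class on the vertical axis. Bnc1+/+ replicate 7 is above the mean for most collagens, and Bnc1tr/tr replicate 1 combines low Col3a1 and Col1a1 with high Col6a3 and Col9a2.

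Genes that act on collagens were counted from the same fit over 7 lists with 98 tested genes, of which 9 were lower (9.18%, beside 4.19% of all genes) and 2 higher (2.04%, beside 2.88%). Of the 15 tested genes for hydroxylation and glycosylation of the chains, 1 was lower, P3h4 (listed under its older symbol Leprel4), a partner of lysyl hydroxylase, with a log2 fold change of -0.68 (edgeR adjusted p = 0.0148). Of the 9 tested genes for folding and secretion, edgeR called 0 (5 at an unadjusted p under 0.05, beside 24.2% of all genes). For 5 of the 9 (55.6%, beside 15.8% of all genes) every Bnc1tr/tr ovary lay below every Bnc1+/+ ovary. For 2 (22.2%, beside 15.0%) every Bnc1tr/tr ovary lay above. DESeq2 called 3 of the 9 lower and 0 higher, beside 1340 lower and 1080 higher of the 19423 genes tested. Serpinh1, the collagen chaperone HSP47, was at 1310, 1410 and 1409 CPM in Bnc1+/+ and at 1028, 1070 and 1199 CPM in Bnc1tr/tr (log2 fold change -0.33, edgeR adjusted p = 0.0882), without overlap. Tmem38b, an ion channel of the endoplasmic reticulum, had a log2 fold change of -0.48 (edgeR adjusted p = 0.0605). Of 14 genes for propeptide removal and cross-linking, 2 were lower. Tll2, a protease related to procollagen C-proteinase, was at 10.4, 15.9 and 25.3 CPM in Bnc1+/+ and at 2.56, 1.69 and 2.40 CPM in Bnc1tr/tr (log2 fold change -2.95, edgeR adjusted p = 0.0043). Loxl2, a lysyl oxidase that cross-links type IV collagen, was at 123, 148 and 164 CPM and at 93.7, 102 and 80.3 CPM (log2 fold change -0.66, edgeR adjusted p = 0.0304).

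Of 9 tested collagen receptors, 1 was lower (11.1%, beside 4.19% of all genes), the fibrillar collagen integrin Itga11 (log2 fold change -0.64, edgeR adjusted p = 0.0139). Among 16 fibril-associated proteins 2 were higher (12.5%, beside 2.88% of all genes), Fbln1 (0.49, edgeR adjusted p = 0.0244) and Ogn (0.50, edgeR adjusted p = 0.0327). Ogn lost its call whichever ovary was left out (adjusted p 0.0538 to 0.120), and Fbln1 lost it without any 1 of the Bnc1+/+ ovaries or without Bnc1tr/tr replicate 3 (adjusted p 0.0720 to 0.121), so that edgeR called 0 genes of this list in those 4 fits. Other proteins of basement membranes were tested with 18 genes, of which 4 were lower (22.2%, beside 4.19% of all genes) and 0 higher. For 9 of the 18 (50%, beside 15.8% of all genes) every Bnc1tr/tr ovary lay below every Bnc1+/+ ovary. Lama5, a laminin chain, was at 111, 125 and 128 CPM in Bnc1+/+ and at 62.9, 57.6 and 53.6 CPM in Bnc1tr/tr (log2 fold change -1.06, edgeR adjusted p = 0.0018). Lamc3, another laminin chain, was at 165, 142 and 148 CPM and at 80.9, 62.0 and 84.6 CPM (log2 fold change -1.0, edgeR adjusted p = 0.0059). Both laminin chains thus lay lower in every Bnc1tr/tr ovary than in any Bnc1+/+ ovary, as did Col4a1 and Col4a2. Lama4, the laminin chain of vessels, and the integrin ligand Npnt were lower with log2 fold changes of -0.39 and -0.71 (edgeR adjusted p = 0.0399 and 0.0442). Lama4 lost its call whichever ovary was left out (edgeR adjusted p 0.0605 to 0.125). Of these fits, Npnt kept its call only in that without Bnc1tr/tr replicate 2 (edgeR adjusted p = 0.0497). With library size only, both genes lost their call (edgeR adjusted p = 0.0827 and 0.0621). DESeq2 called 6 of these 18 genes lower and 1 higher, beside 1340 lower and 1080 higher of the 19423 genes tested. Of 17 genes of TGF-beta signalling, a known regulator of collagen genes, 1 was lower (5.88%, beside 4.19% of all genes). It was Ltbp1, which tethers latent TGF-beta to the matrix, at 448, 519 and 804 CPM in Bnc1+/+ and at 170, 146 and 153 CPM in Bnc1tr/tr (log2 fold change -1.92, edgeR adjusted p = 0.00367).

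The count over these lists was 4 without Bnc1+/+ replicate 4, 6 without Bnc1+/+ replicate 7, and 7 without Bnc1+/+ replicate 1 or without Bnc1tr/tr replicate 3. Tll2, Ltbp1, Lama5 and Lamc3 stayed under an adjusted p of 0.05 whichever ovary was left out, whereas the other 7 called genes all lost their call without Bnc1+/+ replicate 4. The calls of the basement membrane list fell from 4 to 2 without Bnc1+/+ replicate 1, Bnc1+/+ replicate 4, Bnc1tr/tr replicate 1 or Bnc1tr/tr replicate 3.

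**Figure D5:**
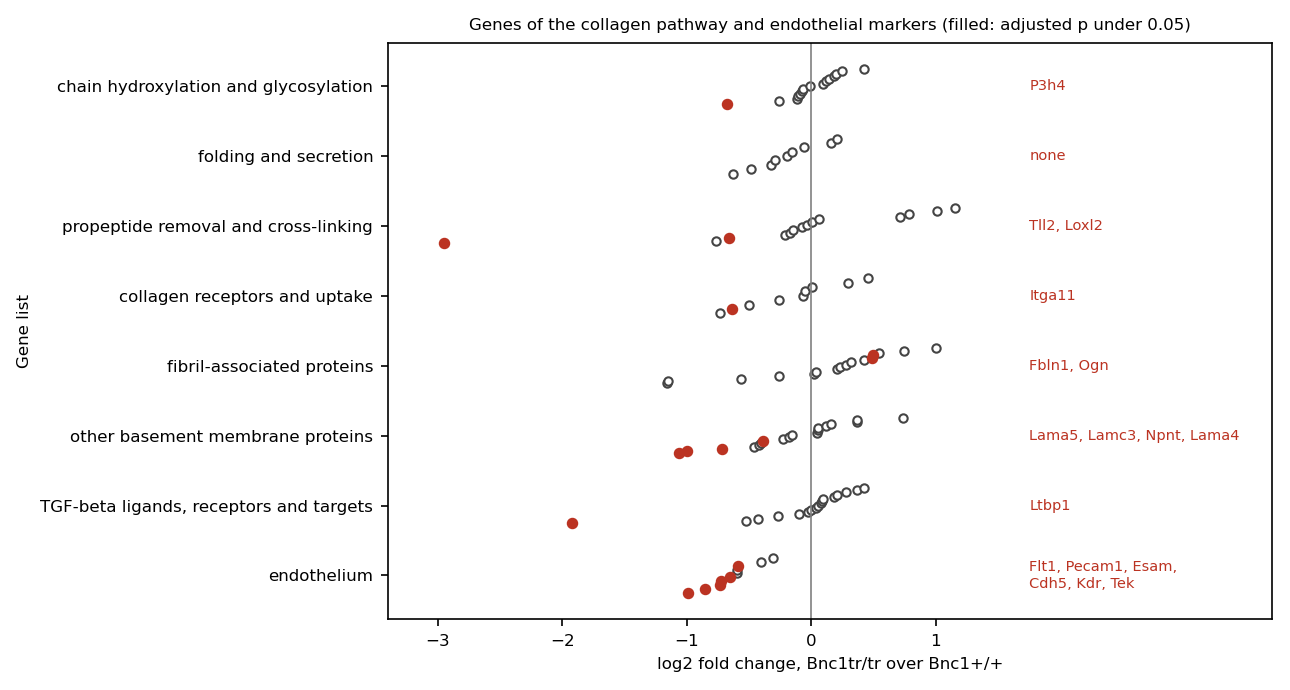
Log2 fold changes (Bnc1tr/tr over Bnc1+/+) of the tested genes of 7 collagen-related lists and of the endothelial markers, with 1 point per gene. Filled points and the names on the right mark genes with an edgeR adjusted p under 0.05, and most points of the collagen-related lists lie between -1 and 1.

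Markers of the cells that make or border on collagens also differed, and in whole ovaries fewer cells of a type and less RNA per cell cannot be told apart. Of 10 endothelial markers, 6 were lower in Bnc1tr/tr (Kdr, Flt1, Pecam1, Esam, Cdh5 and Tek; 60%, beside 4.19% of all genes), with a median log2 fold change of -0.63. Their sum was 988 to 1330 CPM in Bnc1+/+ and 678 to 790 CPM in Bnc1tr/tr, without overlap. Without Bnc1+/+ replicate 4 the count of lower endothelial markers was 3, and without Bnc1+/+ replicate 7 or Bnc1tr/tr replicate 1 it was 4. Divided by this sum, Col4a1 and Col4a2 together were at 1.77, 1.51 and 1.84 in Bnc1+/+ and at 1.76, 1.60 and 1.77 in Bnc1tr/tr. Col18a1 over the same sum was 0.227 ± 0.0286 in Bnc1+/+ and 0.217 ± 0.0135 in Bnc1tr/tr, and Col6a1 was 0.947 ± 0.043 and 0.872 ± 0.0585 (SD, n = 3). These 3 ratios overlapped between the genotypes. Col1a1, Col1a2 and Col3a1 over the endothelial sum were 1.80 ± 0.294 in Bnc1+/+ and 2.78 ± 0.355 in Bnc1tr/tr (SD, n = 3), without overlap. These ratios were formed after the values were seen, and the part of endothelial cells in the collagen levels was not tested.

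Of 10 corpus luteum markers, 7 were lower (70%, beside 4.19% of all genes), with a median log2 fold change of -1.49 and sums of 22680 to 26460 CPM in Bnc1+/+ and 6972 to 12500 CPM in Bnc1tr/tr. This count was 2 without Bnc1+/+ replicate 4 or without Bnc1+/+ replicate 7, 3 without Bnc1tr/tr replicate 3 and 4 without Bnc1+/+ replicate 1. Of 10 stromal fibroblast markers, 1 was lower, the pericyte receptor Pdgfrb, and 1 was higher, Clec3b (10% each, beside 4.19% and 2.88% of all genes). The list had 0 lower without Bnc1+/+ replicate 4 or Bnc1tr/tr replicate 3 and 0 higher without Bnc1+/+ replicate 7. Their sum was 503 to 570 CPM in Bnc1+/+ and 479 to 499 CPM in Bnc1tr/tr. Of 10 smooth muscle markers edgeR called 0, with 2 at an unadjusted p under 0.05. In the granulosa, theca, oocyte, surface epithelium and adipocyte lists 0 were lower and 1, 1, 3, 1 and 1 were higher (Amh, Nr2f2, the oocyte genes Gdf9, Bmp15 and Oosp1, Lrrn4 and Plin1). These were 10%, 14.3%, 30%, 10% and 12.5% of the lists, beside 2.88% of all genes called higher. The oocyte count was 0 without Bnc1+/+ replicate 4, Bnc1+/+ replicate 7 or Bnc1tr/tr replicate 3, and 1 without replicate 1 of either genotype. The granulosa count was 0 in each of these 5 fits and 2 without Bnc1tr/tr replicate 2. The theca and adipocyte counts were 0 in all fits that left out an ovary except that without Bnc1tr/tr replicate 3, where they were 1 and 2, and the surface epithelium count was 0 without any 1 of the Bnc1+/+ ovaries and 2 without Bnc1tr/tr replicate 3. In the oviduct and immune lists edgeR called 0, with 1 at an unadjusted p under 0.05 in each. Oviduct markers nevertheless summed to 524 CPM in Bnc1tr/tr replicate 3 and 145 CPM in Bnc1+/+ replicate 1, and to at most 30.6 CPM in the other 4 ovaries. Adipocyte markers summed to 438 and 302 CPM in Bnc1tr/tr replicates 1 and 2 and to at most 118 CPM in the other 4 ovaries. The part of these cells in the collagen levels was not tested.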

How the data were processed

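Total RNA of 6 ovaries was extracted with TRIzol and made into single-end Ion Proton libraries. The authors deposited raw counts, whole numbers of reads per gene listed by symbol, without normalization. The submitters' processing notes name the builds mm10 and Sscrofa10.2, the second a pig genome whose use is not explained; the aligner, counter, annotation and strand setting are not given in the sources used here. Without strand, reads of overlapping genes such as Col4a1 and Col4a2 near their shared start cannot be told apart. Gene counts also mix the isoforms of a gene.

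Genes with low counts were removed with filterByExpr of edgeR 4.0.16 (minimum count 10, R 4.3.3), counts were scaled with TMM, and all 6 ovaries were fitted with glmQLFit and glmQLFTest, two-sided, with Benjamini-Hochberg adjustment over 19423 genes. The common biological coefficient of variation was 0.186, and depths of 25247770 to 34406296 counts leave it, rather than counting error, as the main limit for genes above a few CPM. The SE of a log2 fold change is not an output of this edgeR test. It was derived as the absolute log2 fold change divided by the square root of the test's F statistic. The TMM factors were 0.958 to 0.978 in Bnc1+/+ and 1.03 to 1.04 in Bnc1tr/tr. A gene with at most 3 counts in every ovary was treated as at the floor, which covers counting error only. Gene lengths and positions came from GENCODE M21 (GRCm38, the union of exons) and promoters from RefSeq (GRCm38.p6). All 44 collagens matched an annotated gene, and 6 symbols of the lists were matched through older names.

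The collagens and the lists, for chain modification, folding and secretion, cross-linking, receptors, fibril-associated and basement membrane proteins, TGF-beta signalling and 11 cell types, were chosen with earlier results of these data known. Values per ovary are given for called collagens, for the 10 with the highest level per kilobase and for their partner chains; called genes (at most 5) were named from each pathway list, or the 2 with the smallest p. Further collagens with values per ovary were chosen after their values were seen. The alternatives were DESeq2's size factors, library size only, 2 other filters, DESeq2 1.42.0, limma-voom (limma 3.58.1), a robust fit, leaving out each ovary, a fold threshold, the longest transcript as length, and counts without ribosomal RNA and mitochondrial genes. The scripts were tested on simulated data.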

Additional observations from a re-analysis of the deposited data

How the results depend on the processing

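With 2 collagens called by edgeR, the count was 1 with library size only, 6 without a filter, 8 with DESeq2 and 0 with an added absolute log2 fold change over 1, and it ran from 0 to 5 as 1 ovary was left out. Over all genes it was 1372, with 2420 by DESeq2, 648 with the added fold threshold and 320 to 1282 as 1 ovary was left out. Of the genes of the collagen-related lists 11 were called, with 17 without a filter, 26 by DESeq2, 3 with the fold threshold and 4 to 10 as 1 ovary was left out. Of the cell type markers 22 were called, with 11 under the fold threshold and 6 to 22 as 1 ovary was left out. A fold threshold removes calls by construction; the cause of the other shifts was not tested. With library size only, the median log2 fold change of all genes rose from 0.018 to 0.12, and 616 of 1728 calls were lower instead of 813 of 1372. In that fit Col4a1 lost its call (log2 fold change -0.54, edgeR adjusted p = 0.0662) and Col6a1 kept it (edgeR adjusted p = 0.0272).

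Of the 41 collagens, 29 kept the sign of their fold change in all 13 alternative fits, among them Col6a1 and Col4a1. Under library size only the sign turned for Col6a2 (0.041), Col6a4 (0.047), Col3a1 (0.076), Col4a5 (0.080) and Col5a2 (0.006). As 1 ovary was left out, the log2 fold change ran from -0.088 to 0.22 for Col1a1, -0.031 to 0.11 for Col1a2, -0.18 to 0.15 for Col6a2, -0.24 to 0.17 for Col6a3, -0.38 to 0.12 for Col6a4, -0.41 to 0.071 for Col7a1, -0.22 to 0.20 for Col3a1, -0.13 to 0.13 for Col4a5, -0.13 to 0.23 for Col4a3, -0.24 to 0.11 for Col5a2, -0.56 to 0.071 for Col11a1 and -0.11 to 0.21 for Col24a1; none of these 12 was called in any fit. The median over collagens ran from -0.15 to 0.050.

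With the longest transcript as length, the log2 chain ratios in Bnc1+/+ moved to -1.24 (Col1a1 to Col1a2), 0.55 (Col4a1 to Col4a2), 1.81 (Col4a5 to Col4a6), 0.19 (Col5a1 to Col5a2), 1.77 (Col6a1 to Col6a2), -4.13 (Col6a3 to Col6a1), -0.47 (Col8a1 to Col8a2) and 3.55 (Col11a1 to Col11a2), by the same amount in both genotypes, so the differences between genotypes did not move; the order of levels between genes did move, with Col3a1 from the 4th to the 2nd place and Col1a2 from the 5th to the 4th over all ovaries, and 9 of the 10 highest genes shared. Without ribosomal RNA and mitochondrial genes the mean collagen share was 0.703% in Bnc1+/+ and 0.607% in Bnc1tr/tr. The ovaries of the genotypes overlapped in this share too, and Bnc1+/+ replicate 7 had the highest value. The ribosomal RNA gene Rn18s-rs5 was uneven, with 976633 counts in Bnc1+/+ replicate 1 and 126584 to 472437 in the other ovaries. No paired analysis was possible because the genotypes share only the replicate number 1 and nothing ties a Bnc1+/+ ovary to a Bnc1tr/tr ovary.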
